A study of Mus musculus with 12 samples.

Results

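The genes described here build and run intraflagellar transport, the traffic in both directions along the microtubules of the cilium. They are the 35 protein-coding genes on primary chromosomes named Ift or Bbs with a number, together with Kif3a, Kif3b, Kif3c, Kif17, Kifap3, Ttc8, Arl6, Dync2h1, Wdr19, Wdr35, Ttc21b, Traf3ip1 and Cluap1. The deposited gene table lists 52962 genes in all. By role, 13 of the 35 encode IFT-B, 6 encode IFT-A, 7 encode the BBSome, 3 serve BBSome assembly and recruitment, 5 encode kinesin-2 and 1 encodes the heavy chain of dynein-2.

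In this transport, kinesin-2 motors carry trains of IFT-B and IFT-A proteins from the base of the cilium to its tip, and dynein-2 brings them back. The BBSome is a coat-like adaptor that rides on the trains and moves membrane proteins, and the small GTPase ARL6 recruits it to membranes. A rod's outer segment is a modified cilium, and opsin and other disc proteins reach it through a narrow connecting cilium, so loss of many of these genes causes retinal degeneration, alone or in Bardet-Biedl and other ciliopathy syndromes.

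RNA came from rod photoreceptors of the mouse retina at postnatal day 8, when outer segments are still forming. Plasmids had been electroporated into the retinas, and 50 to 100 GFP-positive rods per library were picked by micromanipulator from papain-dissociated tissue. The 4 groups hold 3 libraries each: shRNA mCsnk2a1 (a short hairpin RNA against mouse Csnk2a1) and shRNA Control, and pcDNA4c mCsnk2a1 (an expression vector carrying mouse Csnk2a1) and pcDNA4c Control. Csnk2a1 encodes a catalytic subunit of protein kinase CK2, and the series' title asks how this kinase acts on the target genes of NRL, a factor needed for rod identity. The mouse strain, the hairpin sequence, the promoter that drives GFP and whether the 3 independent RNA samples of a group came from separate animals are not stated in any source used here. P-values therefore cover the spread between these libraries, which may be technical.

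Library totals ran from 1609099 to 3567252 estimated counts and were higher in the shRNA mCsnk2a1 group (at least 2840541) and the pcDNA4c mCsnk2a1 group (at least 2296158) than in either control group (at most 2017899). Csnk2a1 itself stood at 66.9, 57.2 and 8.51 CPM (counts scaled to a common library total by the TMM method) in shRNA Control and at 12.0, 22.2 and 36.0 CPM in shRNA mCsnk2a1. In pcDNA4c Control it was at 86.6, 25.0 and 28.3 CPM, and in pcDNA4c mCsnk2a1 at 49.9, 145 and 122 CPM. Both pairs of groups overlapped, with a log2 difference of -0.92 (SE 0.88, adjusted p = 0.905) for knockdown and 1.18 (SE 0.88, adjusted p = 0.801) for overexpression, so the targeted gene gave no firm check of the labels. All 10 rod markers had counts in every group. Their summed level was 4197 to 6213 CPM in shRNA Control and 9486 to 11182 CPM in shRNA mCsnk2a1, without overlap (10 of 10 higher, 0 called, median log2 difference 0.85), and 4150 to 5432 CPM in pcDNA4c Control and 3830 to 8700.03 CPM in pcDNA4c mCsnk2a1, which overlap. With the hairpin the summed markers of cones (248 to 273 against 139.6 to 189 CPM), bipolar cells (962 to 2112 against 614 to 850.3 CPM) and Müller glia (1092 to 1639.5 against 540.1 to 881 CPM) were higher as well, as were those of ganglion cells (115 to 189 against 65.3 to 111 CPM) and progenitors (204 to 255 against 98.2 to 147 CPM), with 0 markers called. Single tested markers did not all follow the sums. For ganglion cells 3 were higher and 3 lower, and for progenitors 4 and 2. For cones 6 were higher and 2 lower, for bipolar cells 7 and 3, and for Müller glia 8 and 1. With the pcDNA4c mCsnk2a1 vector those of bipolar cells were higher (1032 to 1340.2 against 383 to 546 CPM; 10 of 10 markers higher, 1 called), as were those of amacrine and horizontal cells (302 to 469 against 249 to 287 CPM; 5 of 10 markers higher, 0 called), and those of cones (70.9 to 103 against 144 to 213 CPM; 7 of 8 tested markers lower, 0 called) and Müller glia (618 to 707 against 1244 to 1627 CPM; 6 of 9 single markers had a positive and 3 a negative difference, 1 called in either direction) were lower. Progenitor markers summed to 2.35 to 777 CPM in pcDNA4c mCsnk2a1, a wide spread around the 167 to 214 CPM of pcDNA4c Control. The 11 microglial markers summed to 936 to 1088 CPM in pcDNA4c Control, against 59 to 79 CPM in shRNA Control, 2.5 to 38 CPM in shRNA mCsnk2a1 and 36 to 84 CPM in pcDNA4c mCsnk2a1. In the last group 6 of these markers (C1qa, C1qb, Tyrobp, Ctss, Lyz2 and Mpeg1) were listed at 0 in every library, and none was in pcDNA4c Control. In libraries of pooled cells, fewer cells of a type and less RNA per cell cannot be told apart.

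The transport genes were expressed at moderate levels, above most genes. On the TPM scale (transcript abundance corrected for length and library total, summed over a gene's transcripts), the median member averaged 12.4 TPM over the 12 libraries, and 32 of 35 members lay above 2.44 TPM, the median of 21816 protein-coding genes. Together they took 0.133% to 0.265% of a library's counts, and 31 to 35 of them had at least 1 count in a given library. Thinned to the smallest library's total, the expected number of members with a count was 30.9 to 34.8.

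**Figure D1:**
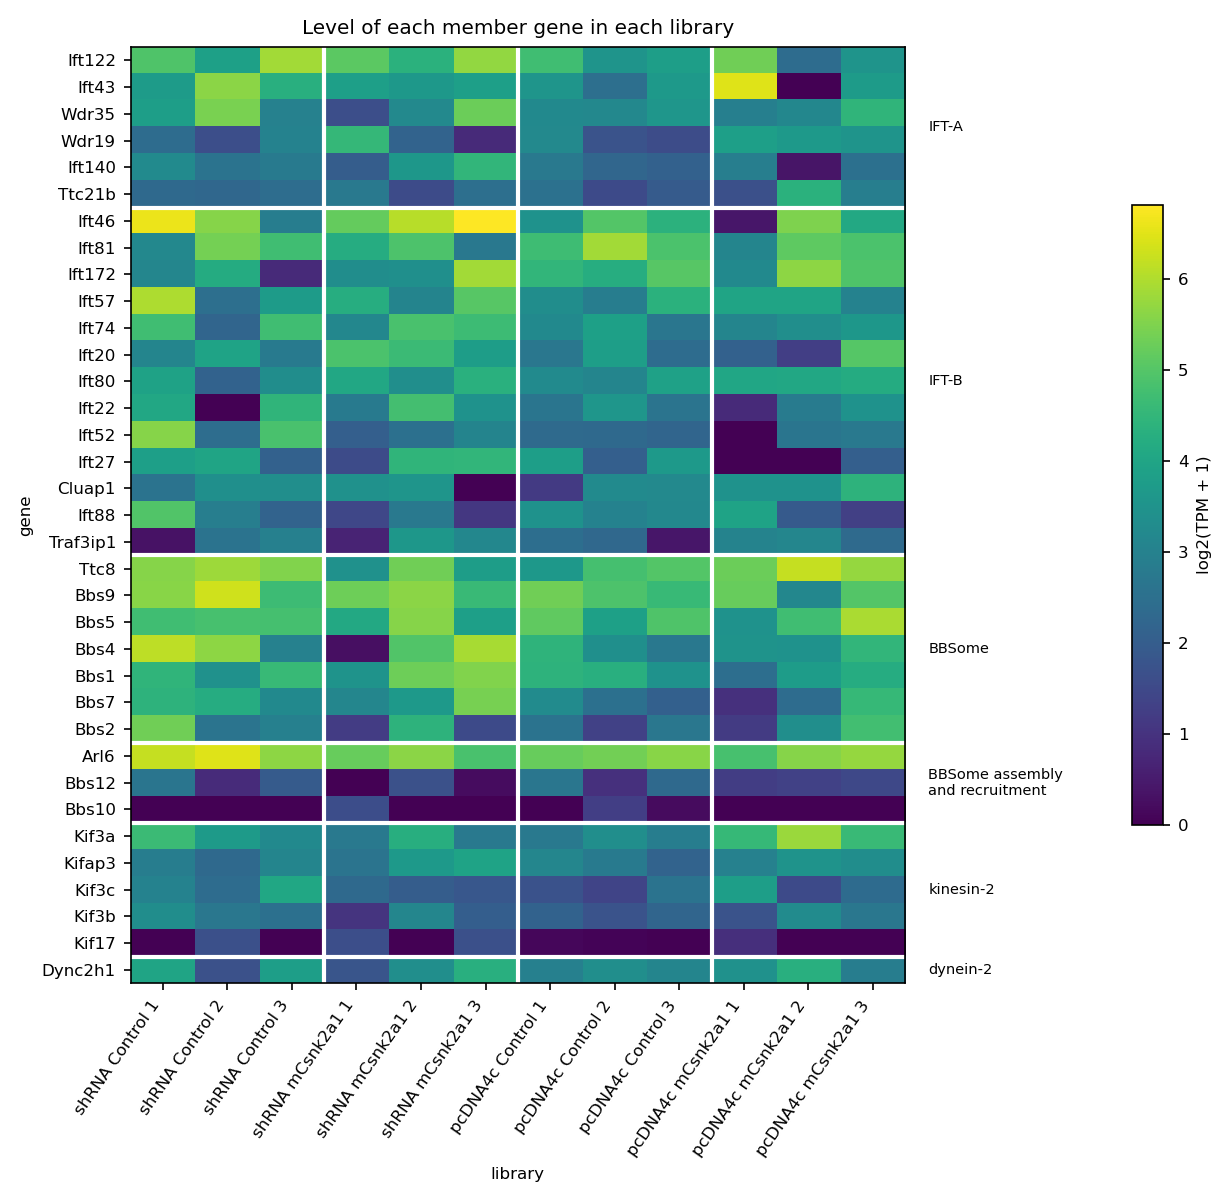
Level of each of the 35 genes (rows, grouped by complex and ordered by mean level) in each of the 12 libraries (columns, grouped by treatment), as log2(TPM + 1). Arl6 is at 27.2 TPM or more in every library, whereas Ift46 runs from 0.33 to 111 TPM, and Bbs10 and Kif17 are dark in most libraries.

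Arl6 headed the list at a mean of 47.6 TPM (SD 17.5, n = 12; range 27.2 to 87.8), and it was among the 5 highest members in 11 of 12 libraries. Ift46 followed at 40.3 TPM (SD 35.3), Ttc8 at 36.7 TPM (SD 19.3), Bbs9 at 35.5 TPM (SD 17.5) and Bbs5 at 27.3 TPM (SD 14.5). The order among these is not firm: Ift46 exceeded Arl6 in 3 of 12 libraries, Ttc8 exceeded Ift46 in 7, Bbs9 exceeded Ttc8 in 7 and Bbs5 exceeded Bbs9 in 4. Ift122 led IFT-A at 25.6 TPM (SD 16.9), Kif3a led kinesin-2 at 16.3 TPM (SD 13.9), and Dync2h1, the dynein-2 heavy chain, averaged 9.91 TPM (SD 5.43). These levels sum all transcript types of a gene, and the ranking depends on that. Over protein-coding transcripts alone Arl6 stayed at 47.6 TPM, but Ift122 averaged 2.88 TPM, below Ift43 at 18.6 TPM. On that scale Kif3a was at 7.64 TPM and Kifap3 at 7.75 TPM. Ttc8 (12.5 TPM) and Bbs5 (5.15 TPM) were below Bbs9 (23.9 TPM). At the low end stood Bbs12 (2.18 TPM), Kif17 (0.62 TPM) and Bbs10 (0.30 TPM). Bbs10 and Bbs12 encode chaperonin-like proteins that assemble the BBSome, and Bbs10 had counts in 3 of 12 libraries and was the one member that did not pass the filter on low counts.

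A member's level varied widely between libraries of a group. The biological coefficient of variation that edgeR fitted had a median of 0.81 over the 34 tested members and 1.28 over all 20267 genes tested, with Arl6 the lowest member at 0.57. Ift46, a core IFT-B protein, shows the spread: it stood at 117, 55.4 and 7.94 CPM in shRNA Control, 63.5, 118 and 176 CPM in shRNA mCsnk2a1, 33.0, 58.5 and 37.1 CPM in pcDNA4c Control, and 30.6, 63.3 and 23.5 CPM in pcDNA4c mCsnk2a1. Its shRNA Control libraries alone ran from the lowest of all 12 to well above their median. Across the 20267 genes tested, the rank correlation of 2 libraries was 0.52 to 0.69 within a group and 0.52 to 0.63 between groups, given as a description.

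No member passed the test in any comparison. With edgeR's quasi-likelihood test and Benjamini-Hochberg adjustment over all 20267 genes, 0 of 34 members were called at an adjusted p under 0.05 for knockdown, where 0% of all genes were called, and 0 of 34 for overexpression, where 0.0987% were called. The difference between the overexpression and knockdown effects was called for 0 of 34 (0.0197% of all genes), and shRNA Control against pcDNA4c Control for 0 of 34 (0.0691%). At an unadjusted p under 0.05 there were 0 of 34 members for knockdown (8.33% of all genes), 1 for overexpression (Kif3a; 8.73%), 1 for the difference of effects (Bbs1; 8.34%) and 0 for the controls (4.21%). A single member of 34 is a smaller share than that of all genes. DESeq2 and limma voom also called 0 members in all 4 comparisons.

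For knockdown, 20 members had a positive and 14 a negative log2 difference, with a median of 0.34 (all genes: -0.03). The summed rod, cone, bipolar, Müller, ganglion cell and progenitor markers given above were higher in the same comparison. The summed microglial markers were lower, at 2.5 to 38 against 59 to 79 CPM (2 single markers higher, 7 lower, 0 called). The part of any of these markers in this split was not tested. For overexpression the split was 17 to 17, with a median of -0.01 (all genes: -0.16). With DESeq2 size factors the knockdown split was 19 to 15 and with library size alone 18 to 16. Standard errors ran from 0.57 to 2.68 on the log2 scale for knockdown and from 0.57 to 2.70 for overexpression. Even for Arl6, the member with the smallest error, the 95% interval of the knockdown difference ran from -1.69 to 0.71, so a missed call does not show an equal level.

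**Figure D2:**
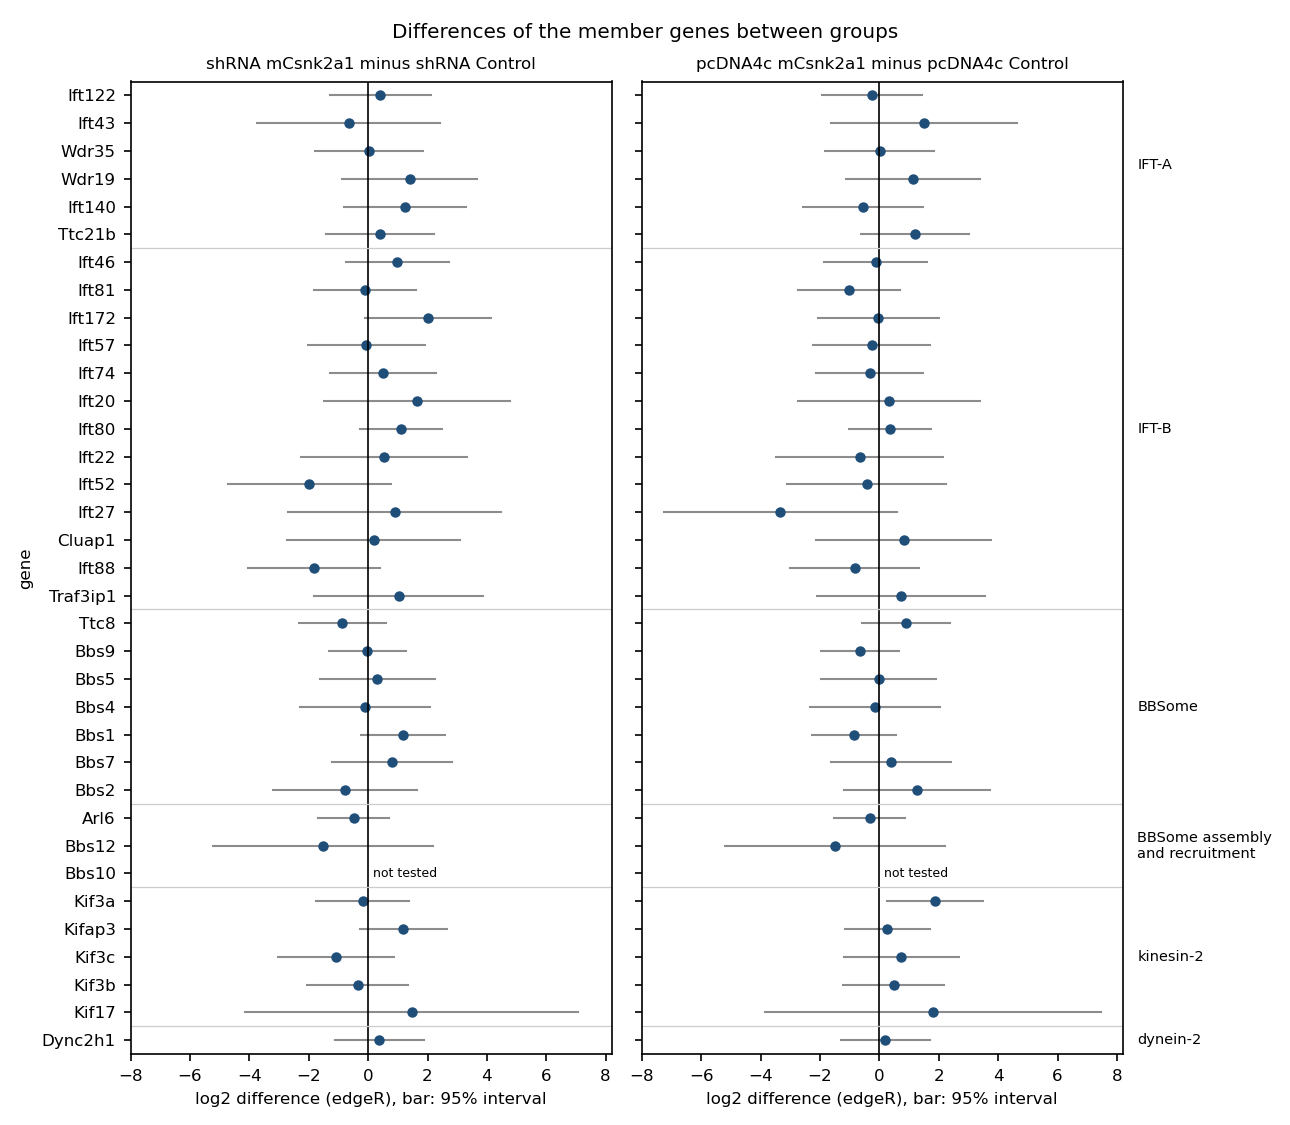
Log2 difference of each gene for knockdown (left) and overexpression (right), as points with 95% intervals from edgeR, by complex. All intervals for knockdown and all but that of Kif3a for overexpression include 0, and the 5 kinesin-2 points lie to the right of 0 for overexpression (3 of 5 in the authors' normalized values, which lack 1 library).

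The best measured of the genes was Arl6, which encodes the GTPase that brings the BBSome to membranes. It stood at 117, 140 and 84.0 CPM in shRNA Control, 82.3, 101 and 59.5 CPM in shRNA mCsnk2a1, 91.5, 100.5 and 111 CPM in pcDNA4c Control, and 50.7, 90.5 and 101 CPM in pcDNA4c mCsnk2a1. Both pairs of groups overlapped in CPM. The log2 difference was -0.49 (SE 0.57, adjusted p = 0.954) for knockdown and -0.32 (SE 0.57, adjusted p = 0.988) for overexpression. In TPM the knockdown pair did not overlap, at 72.2, 87.8 and 49.3 TPM in shRNA Control and 36.6, 48.6 and 27.9 TPM in shRNA mCsnk2a1. In coding-transcript TPM, 7.4% of all genes were lower without overlap for knockdown. The overexpression pair overlapped in TPM as well.

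Arl6 has a known retinal form, made by including a 13-base exon near the 3′ end of the coding sequence, which shifts the frame and gives the protein another C-terminus. The exon lies at chr16:59618666-59618678 (mm10, minus strand), and the coding sequence is 579 bases with it and 558 without it. The sequence on either side of the junction is shown because the reads that tell the forms apart must cross it, read from the GENCODE M21 transcripts with the exon in capitals.
Arl6-203: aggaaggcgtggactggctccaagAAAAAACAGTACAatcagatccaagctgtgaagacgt
Arl6-201: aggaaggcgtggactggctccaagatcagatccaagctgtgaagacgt

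The form with the exon was present in all 12 libraries. Transcripts that hold it (Arl6-202 and Arl6-203) summed to 71.6, 74.0 and 23.3 TPM in shRNA Control, 36.6, 37.0 and 27.9 TPM in shRNA mCsnk2a1, 30.7, 27.1 and 35.0 TPM in pcDNA4c Control, and 27.2, 28.1 and 38.4 TPM in pcDNA4c mCsnk2a1. Of the TPM that either includes or skips the exon, the share with it was 47.2% to 100%, with a median of 84.3%, and it was above 50% in 11 of 12 libraries. The exception was the third shRNA Control library, at 47.2%. An exact permutation test found no difference in the TPM with the exon for knockdown (two-sided p = 0.4) or overexpression (p = 0.9), nor in the share (p = 1 for both), and 3 libraries against 3 cannot give a p below 0.1. These shares are estimates by kallisto from whole transcripts, not counts of junction reads, so their counting error is unknown.

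Ttc8, a BBSome subunit with tetratricopeptide repeats, also has a known photoreceptor exon. This exon of 30 bases, at chr12:98937120-98937149 (mm10, plus strand), keeps the reading frame, and the coding sequence is 1545 bases with it and 1515 without it. It is shown in capitals in the GENCODE M21 transcripts.
Ttc8-201: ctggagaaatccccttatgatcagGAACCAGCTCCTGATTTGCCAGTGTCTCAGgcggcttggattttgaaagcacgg
Ttc8-202: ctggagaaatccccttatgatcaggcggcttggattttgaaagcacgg

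The Ttc8 exon took a more variable share than the Arl6 exon. Transcripts with it summed to 45.4, 4.28 and 21.1 TPM in shRNA Control, 0.00, 39.3 and 3.55 TPM in shRNA mCsnk2a1, 4.66, 3.09 and 0 TPM in pcDNA4c Control, and 0, 0 and 3.71 TPM in pcDNA4c mCsnk2a1. The share with the exon ran from 0% to 100% over the libraries, with a median of 29.6%. It ran from 25.5% to 97.2% within shRNA Control and from 0% to 70.9% within pcDNA4c Control. Exact permutation tests gave p = 0.8 for knockdown and p = 0.4 for overexpression on this share. The form without the exon was summed over Ttc8-202 and Ttc8-207, and the latter is a retained-intron transcript. On average Ttc8-207 held 7.86 of the 9.99 TPM without the exon, so the share and its tests do not describe coding transcripts alone. In 8 libraries part of the Ttc8 signal, up to 68.7 TPM, lay on short transcripts that do not reach the exon and cannot be assigned to a form.

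**Figure D3:**
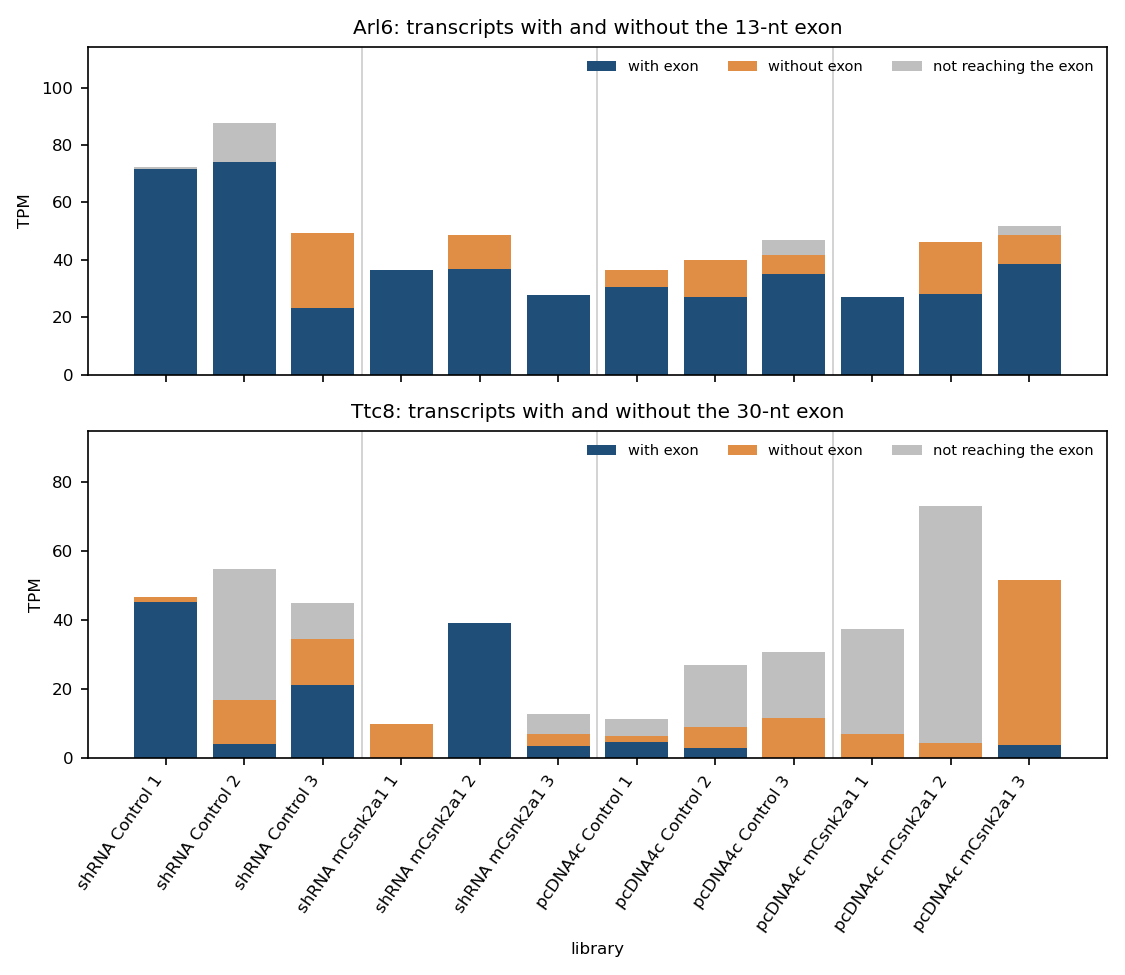
TPM of Arl6 (top) and Ttc8 (bottom) in each library, stacked by transcripts with the retinal exon, without it, and not reaching it. For Arl6 the form with the exon is at 23.3 TPM or more in every library, whereas for Ttc8 it is at 0 or near 0 in 4 libraries.

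At the gene level Ttc8 was at 75.2, 86.3 and 76.0 CPM in shRNA Control and at 22.2, 80.6 and 27.5 CPM in shRNA mCsnk2a1, and at 28.5, 67.5 and 72.0 CPM in pcDNA4c Control and 69.5, 142 and 100.03 CPM in pcDNA4c mCsnk2a1. The second knockdown library matched the controls and the other two were below them. The log2 difference was -0.87 (SE 0.71, adjusted p = 0.855) for knockdown and 0.89 (SE 0.71, adjusted p = 0.827) for overexpression, and both pairs overlapped. Taking only protein-coding transcripts, an analysis chosen after seeing the data, the overexpression difference was -0.91 (adjusted p = 0.869), the opposite sign.

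Bbs1, the BBSome subunit that binds ARL6, was the one member whose overexpression and knockdown effects differed at an unadjusted p under 0.05 (-2.03, SE 0.96, edgeR adjusted p = 0.592). It was at 97.0, 44.7 and 111 CPM in shRNA Control, 66.1, 228 and 275 CPM in shRNA mCsnk2a1, 146, 134 and 67.6 CPM in pcDNA4c Control, and 24.1, 70.2 and 97.3 CPM in pcDNA4c mCsnk2a1. The log2 difference was 1.17 (SE 0.68, adjusted p = 0.665) for knockdown and -0.86 (SE 0.67, adjusted p = 0.822) for overexpression. Most of this signal was not coding: retained-intron transcripts made up 63.1% of the gene's mean TPM and protein-coding ones 26.0%. Over protein-coding transcripts, the second and the third overexpression libraries were the highest of all 12, at 12.5 and 17.4 TPM, and the overexpression difference turned to 1.06 (adjusted p = 0.806).

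Among the 13 IFT-B genes, which form the train that kinesin-2 pulls outward, the log2 difference for knockdown was positive for 9 and negative for 4 (median 0.54), and for overexpression positive for 4 and negative for 9 (median -0.26). Ift172, which acts in the turnaround of trains at the ciliary tip, had the smallest adjusted p of any member for knockdown (log2 difference 2.00, SE 1.01, adjusted p = 0.605). Its levels were 16.1, 35.7 and 1.70 CPM in shRNA Control against 27.0, 25.8 and 162 CPM in shRNA mCsnk2a1, and 70.8, 59.5 and 98.6 CPM in pcDNA4c Control against 20.6, 127 and 75.5 CPM in pcDNA4c mCsnk2a1. One library set the knockdown value: without the third shRNA mCsnk2a1 library it was 0.57. In that library retained-intron transcripts of Ift172 stood at 57.0 TPM and protein-coding ones at 0.47 TPM, and over protein-coding transcripts the knockdown difference was -0.18.

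Ift88, an IFT-B protein whose loss in mice impairs outer segment formation, was at 138, 29.2 and 17.0 CPM in shRNA Control and 10.9, 33.9 and 6.77 CPM in shRNA mCsnk2a1. The pcDNA4c Control libraries were close together at 71.8, 51.0 and 54.3 CPM, and the pcDNA4c mCsnk2a1 libraries stood at 76.5, 15.7 and 7.72 CPM. The log2 difference was -1.83 (SE 1.07, adjusted p = 0.667) for knockdown and -0.83 (SE 1.04, adjusted p = 0.958) for overexpression. The first shRNA Control library carried the knockdown value, which was -0.42 without it.

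Ift52, another IFT-B core protein, was high in 2 of the 3 shRNA Control libraries and low in the other 10. It was at 121, 11.3 and 76.0 CPM in shRNA Control and 11.3, 15.7 and 25.3 CPM in shRNA mCsnk2a1 (log2 difference -1.99, SE 1.31, adjusted p = 0.746), and at 16.2, 16.5 and 13.8 CPM in pcDNA4c Control and 0, 16.3 and 18.1 CPM in pcDNA4c mCsnk2a1. Over protein-coding transcripts the knockdown difference was 1.39 (adjusted p = 0.790).

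Groups that did not overlap in CPM were few. For knockdown this held for 1 of 34 members, in the higher direction (5.61% of all genes), and for 0 in the lower one (6.68%; 12.3% in either direction). That gene, singled out after its values were seen, was Ift20, the IFT-B protein that also sits at the Golgi, at 6.74, 12.5 and 5.67 CPM in shRNA Control and 35.7, 27.4 and 15.0 CPM in shRNA mCsnk2a1. Its log2 difference was 1.64 (SE 1.49, adjusted p = 0.890), on 10 to 95 counts a library. For overexpression 1 of 34 was higher (3.73% of all genes) and 1 lower (11.8%; 15.5% in either direction), namely Kif3a and Ift27.

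Ift27, a small GTPase of IFT-B that helps the BBSome leave the cilium, was at 23.6, 6.00 and 19.9 CPM in pcDNA4c Control, on 12 to 48 counts, and at 0, 0 and 4.70 CPM in pcDNA4c mCsnk2a1. In the shRNA groups it was at 15.6, 16.7 and 3.97 CPM in the control and 3.00, 31.4 and 32.8 CPM with the hairpin. The overexpression difference was -3.35 (SE 1.87, adjusted p = 0.613), with an interval from -7.27 to 0.58. A count of 0 allows up to 3 counts, which is 0.84 to 1.86 CPM of the library total over the 12 libraries, counting error only. Without the third pcDNA4c mCsnk2a1 library, which leaves only libraries at 0, the fitted value was -8.26 and depended on the fit's prior count.

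Ift81, which with IFT74 binds tubulin, was at 79.2, 185 and 86.4 CPM in pcDNA4c Control and 17.9, 84.0 and 69.8 CPM in pcDNA4c mCsnk2a1 (log2 difference -1.03, SE 0.82, adjusted p = 0.830). In shRNA Control it was at 16.6, 82.2 and 54.5 CPM and in shRNA mCsnk2a1 at 50.3, 76.9 and 15.3 CPM. Both pairs overlapped.

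IFT-A, needed for the return journey and for the entry of membrane proteins, had 5 positive and 1 negative difference for knockdown and 4 positive and 2 negative for overexpression (4 to 2 for knockdown and 3 to 3 for overexpression with library size alone). Over protein-coding transcripts these splits were 2 to 4 and 3 to 3. Ift122 had the highest mean TPM of IFT-A when all transcript types were summed. It was at 72.6, 32.7 and 147 CPM in shRNA Control, 112, 60.0 and 164 CPM in shRNA mCsnk2a1, 96.4, 40.0 and 47.1 CPM in pcDNA4c Control, and 112, 12.8 and 30.5 CPM in pcDNA4c mCsnk2a1. Each group spread more than the groups differed (log2 difference 0.41, SE 0.81, for knockdown and -0.25, SE 0.81, for overexpression; adjusted p = 0.999 and 1). Ttc21b, also called IFT139, stood at 58.5, 23.0 and 32.7 CPM in pcDNA4c Control and 19.7, 183 and 61.1 CPM in pcDNA4c mCsnk2a1 (1.20, SE 0.87, adjusted p = 0.784). The second overexpression library carried that value, which was 0.09 without it, and 18.3 TPM of the gene there was a retained-intron transcript. In shRNA Control Ttc21b was at 31.1, 29.2 and 35.7 CPM and in shRNA mCsnk2a1 at 61.6, 19.1 and 46.7 CPM.

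Kinesin-2 gave the smallest adjusted p for overexpression. Kif3a encodes a motor subunit that pairs with KIF3B and the adaptor KAP3 (Kifap3) to move trains outward. It was at 28.5, 46.0 and 29.9 CPM in pcDNA4c Control and 83.5, 209 and 91.6 CPM in pcDNA4c mCsnk2a1, every library of the latter above every library of the former. The log2 difference was 1.88 (SE 0.77, 95% interval 0.27 to 3.49, unadjusted p = 0.0248, adjusted p = 0.568), so it did not pass. In shRNA Control Kif3a was at 76.2, 38.7 and 28.4 CPM and in shRNA mCsnk2a1 at 25.5, 75.7 and 24.2 CPM, which overlap (-0.19, SE 0.75, adjusted p = 1). The highest of the 9 other libraries, at 76.2 CPM, was below the lowest pcDNA4c mCsnk2a1 library, at 83.5 CPM.

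Most of the additional Kif3a signal lay on a short transcript annotated as a target of nonsense-mediated decay, the pathway that destroys messages with a premature stop. That transcript (Kif3a-206, 770 bases, 6 exons) stood at 12.98, 45.6 and 15.5 TPM in pcDNA4c mCsnk2a1 and at 1.34, 5.25 and 0 TPM in pcDNA4c Control. Protein-coding Kif3a transcripts were at 9.48, 8.05 and 8.16 TPM against 4.37, 3.96 and 6.35 TPM, again without overlap. For knockdown the protein-coding transcripts were at 3.66, 7.18 and 5.67 TPM against 14.2, 12.1 and 8.41 TPM in shRNA Control, without overlap in the other direction. A limma fit of log2(TPM + 0.5) over protein-coding transcripts, chosen after seeing the data, gave 0.77 (adjusted p = 0.746) for overexpression and -1.02 (adjusted p = 0.663) for knockdown. In coding-transcript TPM, groups for overexpression did not overlap for 2 of 34 members upward (Kif3a and Traf3ip1, 7.86% of genes). In the same comparison 1 was downward (Ift140, 7.82%). For knockdown the counts were 0 upward (3.24%) and 3 downward (Arl6, Bbs2 and Kif3a, 7.4%).

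For overexpression the partners Kif3b and Kifap3 had smaller differences than Kif3a, whereas for knockdown theirs were larger than that of Kif3a, and the differences between the genes were not tested. Kif3b was at 51.7, 35.5 and 52.1 CPM in pcDNA4c Control and 26.7, 103 and 64.4 CPM in pcDNA4c mCsnk2a1 (0.48, SE 0.81), and at 90.2, 53.0 and 48.8 CPM in shRNA Control and 13.9, 96.3 and 39.9 CPM in shRNA mCsnk2a1 (-0.35, SE 0.81). Kifap3 was at 81.7, 61.5 and 34.3 CPM in pcDNA4c Control and 54.7, 84.3 and 74.2 CPM in pcDNA4c mCsnk2a1 (0.26, SE 0.69). It was at 43.6, 26.2 and 53.9 CPM in shRNA Control and 48.5, 103 and 129 CPM in shRNA mCsnk2a1 (1.18, SE 0.70, adjusted p = 0.672), with the 2 highest of all 12 libraries in the knockdown group. All these pairs overlapped.

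Kif17, the homodimeric kinesin-2 of some sensory cilia, was close to the limit of detection. It had 0, 13 and 0 counts in shRNA Control, 29, 0 and 30 in shRNA mCsnk2a1, 1, 1 and 0 in pcDNA4c Control, and 9, 0 and 0 in pcDNA4c mCsnk2a1. Of its mean 0.62 TPM, 86.3% lay on a retained-intron transcript, and its full-length coding transcript was listed at 0 in every library.

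Summed over the 5 kinesin-2 genes, the level was 42.5 to 74.5 TPM in pcDNA4c mCsnk2a1 and 18.5 to 19.2 TPM in pcDNA4c Control, against 28.1 to 46.3 TPM in shRNA Control and 18.1 to 41.0 TPM in shRNA mCsnk2a1. The 3 pcDNA4c Control libraries were the lowest of the 12 apart from the first shRNA mCsnk2a1 library. Over protein-coding transcripts alone the sum was 23.4 to 28.9 TPM in pcDNA4c mCsnk2a1 and 13.8 to 17.9 TPM in pcDNA4c Control, a narrower gap. On that scale shRNA Control was at 23.6 to 31.5 TPM, which overlaps the pcDNA4c mCsnk2a1 libraries. All 5 had a positive overexpression difference (0.26 to 1.88, median 0.75, 0 called), under TMM, DESeq2 size factors and library size alone. For Kif3c and Kif17 this rested on the first pcDNA4c mCsnk2a1 library. Kif3c was at 23.1, 16.0 and 47.6 CPM in pcDNA4c Control and at 98.0, 14.7 and 32.9 CPM in pcDNA4c mCsnk2a1. All Kif17 counts of the latter group came from that first library. In the authors' normalized values, which have no column for the first pcDNA4c mCsnk2a1 library, 3 of 5 were positive. Library totals and the summed bipolar, amacrine, cone, Müller and microglial markers given above also differed between the pcDNA4c groups (11 of 11 microglial markers were lower in pcDNA4c mCsnk2a1, 2 of them called), as did the mitochondrial share of counts (9.54% to 12.8% against 7.31% to 8.64%), and their part in this difference was not tested.

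**Figure D4:**
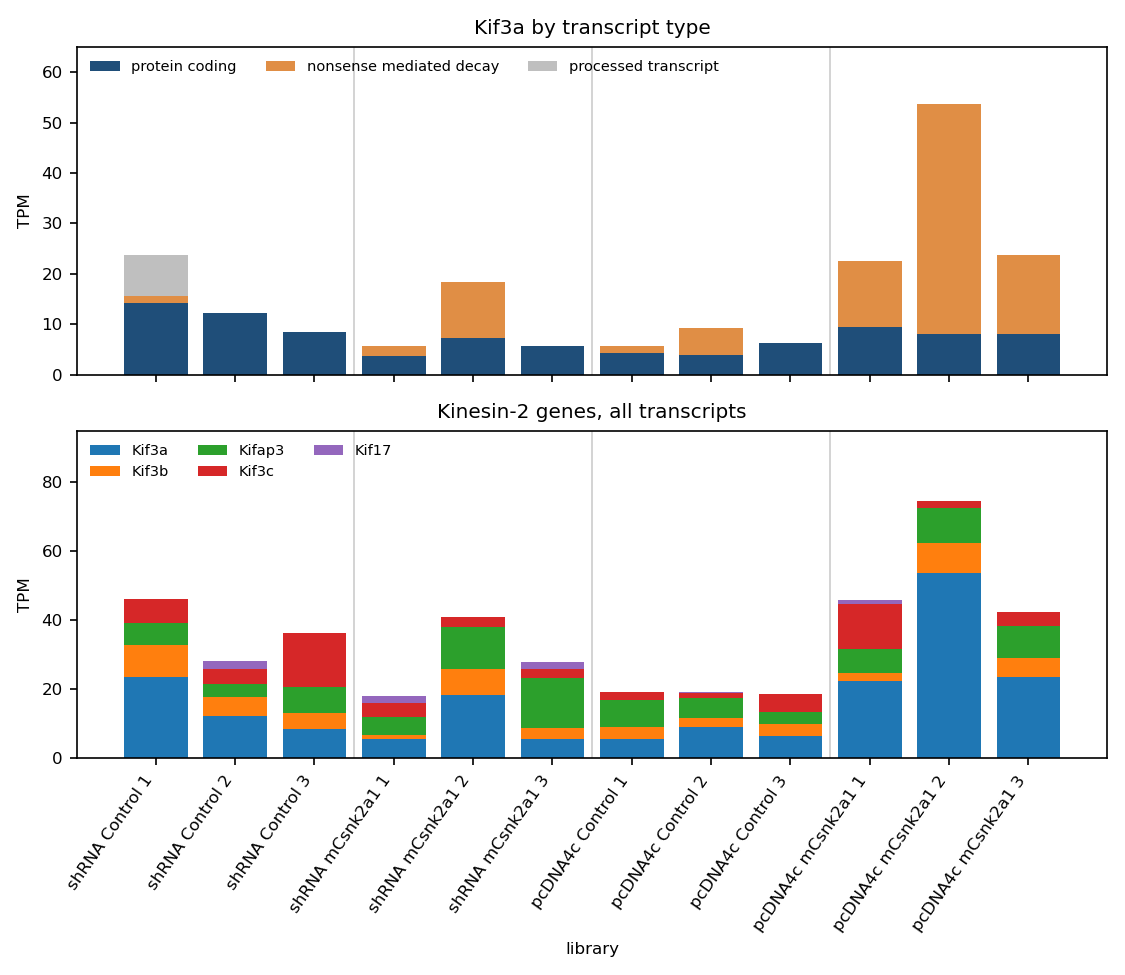
TPM in each library of Kif3a by transcript type (top) and of the 5 kinesin-2 genes stacked (bottom). The transcript annotated for nonsense-mediated decay accounts for most of the height of Kif3a in the 3 pcDNA4c mCsnk2a1 libraries, and the 3 pcDNA4c Control libraries are level at 18.5 to 19.2 TPM for the sum.

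Dync2h1, the motor of the return journey, was at 166, 25.0 and 156 CPM in shRNA Control, 39.1, 134 and 276 CPM in shRNA mCsnk2a1, 119, 161 and 125 CPM in pcDNA4c Control, and 128, 251 and 86.6 CPM in pcDNA4c mCsnk2a1. Both pairs of groups overlapped. The log2 difference was 0.37 (SE 0.72, adjusted p = 0.998) for knockdown and 0.20 (SE 0.72, adjusted p = 1) for overexpression.

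Between the 2 control groups, shRNA Control against pcDNA4c Control, the members' log2 differences ran from -2.10 to 2.77, against -1.99 to 2.00 for knockdown and -3.35 to 1.88 for overexpression. The value of 2.77 was that of Kif17, at no more than 13 counts in these libraries (SE 2.81). Of 34 members, 1 was higher without overlap in shRNA Control than in pcDNA4c Control (Ttc8; 5.13% of all genes) and 1 lower (Ift172; 8.56%). Ift172 had a log2 difference of -2.10 (SE 1.02, adjusted p = 1), nearly the size of its knockdown difference with the opposite sign, and the knockdown difference uses the same shRNA Control libraries.

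Many of these genes were read mostly from transcripts not annotated as protein-coding. That annotation also covers short transcripts. Ift46-205, at a mean of 13.9 TPM, has 80 coding bases, against 903 in Ift46-201. The coding share is therefore not a share of full-length message, and this limit applies wherever protein-coding transcripts alone are counted. Summed over the members, protein-coding transcripts took 45.0% to 64.4% of the TPM in a library (median 58.8%), against 64.8% to 70.3% (median 66.5%) over all protein-coding genes, and the members' share was below that of all genes in each of the 12 libraries. Retained-intron transcripts took 14.9% to 33.6% of the members' TPM and 13.5% to 18.0% of that of all genes. Gene by gene, the median coding share was 54.9% over the 34 tested members and 69.7% over 15574 tested protein-coding genes, and it was under 50% in 15 members (44.1%) and in 35.8% of those genes. The number of annotated transcripts per gene had a median of 5 in both sets. These are descriptions with no test.

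The members differed widely in this respect. Arl6, Kif3b, Kifap3 and Bbs12 were read wholly from coding transcripts, and Ift20 to 99.3%, Ift43 to 91.7%, Bbs7 to 91.3% and Ift22 to 91.1%. At the other end Ift80 was coding to 7.38%, with 71.2% on retained-intron transcripts, Ift122 to 11.3%, Bbs5, a BBSome subunit that binds phosphoinositides, to 18.9%, Bbs1 to 26.0% and Ift172 to 30.4%. The kit copies total RNA and kallisto shares reads among annotated transcripts, so the summed TPM of such a gene is not a level of its mature message.

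**Figure D5:**
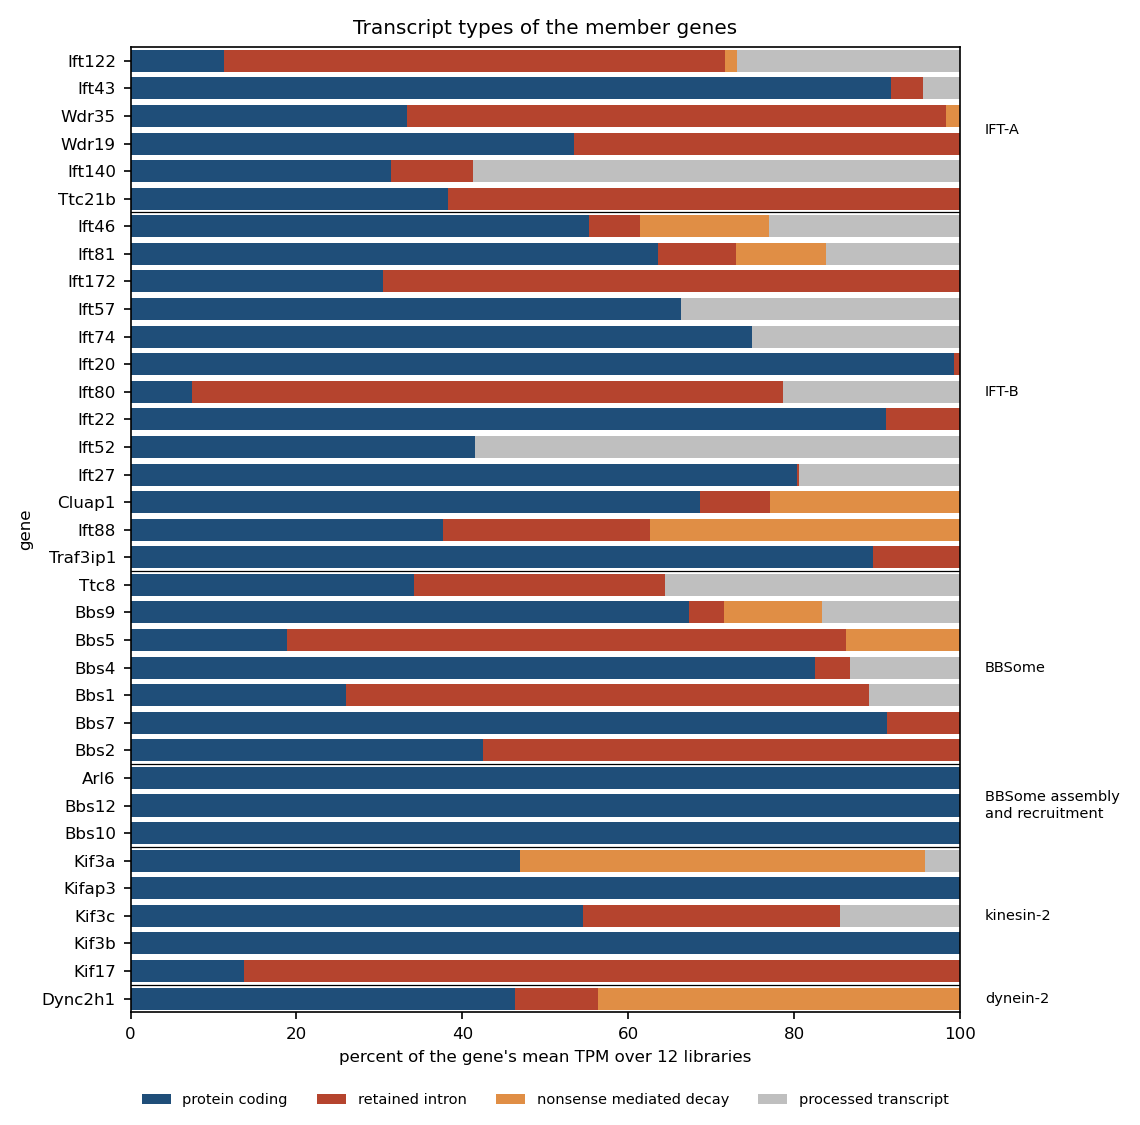
Share of each gene's mean TPM over 12 libraries on protein-coding, retained-intron, nonsense-mediated-decay and other processed transcripts, by complex. Bars run from wholly coding (Arl6, Kif3b, Kifap3) to 7.38% coding (Ift80), and every complex with more than 1 gene other than the BBSome assembly genes holds members under 50%.

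Counting only protein-coding transcripts did not bring any member past the threshold. It left 16 members with a positive and 18 with a negative knockdown difference, against 20 to 14 in whole-gene counts. The members' median in this fit was -0.03, still above that of all genes, at -0.20. The split around 0 therefore lost its lean to positive values, but the position relative to all genes did not reverse. For overexpression the split stayed at 17 to 17.

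Cilium genes are classically driven by RFX factors, which bind the X-box, a palindrome with the arm GTTGCCA. In RefSeq promoters (GRCm38.p6, 250 bases before to 50 after the start, both strands) 32 members had an entry, in 33 promoters. The arm GTTGCCA occurred in 6 of 33 (18.2%), against 4.38% of all 32851 promoters, and the full X-box palindrome, with both arms and free bases between them, in 1 (3.03%), against 0.451%. A site can hold both the arm and the full form. Members' promoters also had a higher median GC content, 59.7% against 52.7%, and no test was made.

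The full form stood in the promoter of Bbs7, a BBSome subunit, 121 bases before the start at chr3:36613497-36613510. The arm stood in those of Bbs1, Dync2h1, Ift27, Ift88, Traf3ip1 and Wdr35. The full form and the arms whose window lies mainly before the start are printed with 20 bases on each side, on the strand of the gene, with the match in capitals, at chr1:91494589-91494595 for Traf3ip1 and chr15:78174084-78174090 for Ift27.
Bbs7: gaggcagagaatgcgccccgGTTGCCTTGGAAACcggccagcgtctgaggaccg
Traf3ip1: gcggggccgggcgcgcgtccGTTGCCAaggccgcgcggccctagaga
Ift27: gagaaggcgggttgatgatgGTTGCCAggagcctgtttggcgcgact

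Letters of the rod factors were not more common than in other promoters. TAATCC, the core bound by the photoreceptor factor CRX, occurred in 1 of 33 (Bbs1; 3.03% against 7.06%), and TGCTGA, one side of the site bound by NRL and its MAF relatives, in 5 of 33 (15.2% against 19.5%), in Dync2h1, Ift140, Kif17, Kif3c and Ttc8. A match is a description of the sequence, and 250 bases leave out more distant elements.

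Other genes of the pathway, from lists compiled by name, also gave no call. Of 17 further subunits and partners, 9 had a positive and 8 a negative knockdown difference, and 8 and 9 for overexpression, with 0 called in each. Tulp3, which hands membrane receptors to IFT-A, had the largest knockdown value of those at an unadjusted p under 0.05 (2.26, SE 0.81, adjusted p = 0.598). It was at 57.6, 25.0 and 32.3 CPM in shRNA Control and 54.8, 106 and 392 CPM in shRNA mCsnk2a1, and without the third of the latter the difference was 1.07. Of 6 tested RFX and FOXJ1 factors, 0 were called in either comparison.

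Of 24 transition zone and basal body genes, which form the gate at the base of the cilium, 20 had a positive and 4 a negative knockdown difference (median 0.42; all genes: -0.03), and 11 and 13 for overexpression (median -0.36), with 0 called. The part in the knockdown split of the rod and other retinal markers given above, whose sums were higher in the same comparison, was not tested either. Nor was that of the microglial markers, whose sum was lower. Over protein-coding transcripts the knockdown split was 11 to 12 among 23 genes, in a fit where the median of all genes was -0.20. Cep290, the Y-link protein of the connecting cilium, was the closest to a call: 883, 1033 and 736 CPM in pcDNA4c Control against 222, 401 and 312 CPM in pcDNA4c mCsnk2a1, without overlap (log2 difference -1.50, SE 0.39, adjusted p = 0.296). DESeq2 and limma voom put it past the threshold for overexpression (adjusted p = 0.0471 and 0.0437). Cep290 was at 496, 320 and 253 CPM in shRNA Control, below every pcDNA4c Control library as well (-1.31, SE 0.38, adjusted p = 0.893), and at 755, 453 and 451 CPM in shRNA mCsnk2a1. Over its protein-coding transcripts the overexpression difference was -0.67 (adjusted p = 0.773). The summed microglial, Müller and cone markers were also lower in pcDNA4c mCsnk2a1 than in pcDNA4c Control, as given above. The summed bipolar and amacrine and horizontal markers were higher. Single markers did not all follow: 6 of 9 Müller markers and 5 of 10 amacrine and horizontal markers had a positive difference. The part of these markers in the Cep290 value was not tested.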

How the data were processed

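RNA from 12 libraries of rods was measured. The deposited gene table holds estimated counts, made with kallisto 0.45.0 on mm10 per the submitters' processing notes, and they were rounded to whole numbers before testing. The deposited transcript table holds TPM, summed per gene through GENCODE M21, which gives 98.0% of the genes and all 35 members (35 at the same position). No source used here names the annotation release of the authors. Another deposited table holds normalized signal values of the authors for 11 libraries (edgeR 3.28 is named in the notes), used in an alternative only.

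Genes passing filterByExpr (minimum count 10) were tested with edgeR 4.0.16 (R 4.3.3): TMM scaling, 4 groups of 3 in one fit, quasi-likelihood test, Benjamini-Hochberg adjustment over 20267 genes, threshold 0.05. Standard errors are the log2 difference divided by the root of F. The kit uses PCR without counted molecular identifiers, so limits from counts cover counting error only. Single values were compared by exact permutation. Scripts were tested on simulated data. For the edgeR fit the simulated libraries varied less than these do, so that test checks the code and not the power here. Alternatives used limma 3.58.1 and DESeq2 1.42.0.

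Values in every library are given for Csnk2a1 and for the 3 members with the smallest p in each direction for knockdown and overexpression. They are also given for the member of each complex with the highest mean TPM over all transcript types, and for Kif3a, Kif3b, Kifap3, Kif17, Ift88, Dync2h1, Arl6 and Ttc8. The members and lists were chosen with earlier results of these data known.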

Additional observations from a re-analysis of the deposited data

How the results depend on the processing

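Over 23 alternatives (scalings, filters, tools, pseudocounts, the authors' normalized values, the libraries of a comparison alone, the replicate block, protein-coding transcripts, and each of 12 libraries left out), 0 members were called in all 73 fits, and 0 pathway genes except for overexpression under DESeq2 and under limma voom, which each called 1 (Cep290). Libraries left out in turn gave 0 throughout for both. Library size alone moved the median of all genes from -0.03 to -0.22 for knockdown and from -0.16 to -0.30 for overexpression. Counts over all genes ranged more widely: 0 to 183 for knockdown, 9 to 249 for overexpression, 1 to 209 for the difference of effects and 9 to 71 for the controls, highest under DESeq2 or with no filter on low counts. The fit on protein-coding transcripts, chosen after seeing the data, turned the sign of Ift172 (-0.18) and Ift52 (1.39) for knockdown and of Ttc8 (-0.91) and Bbs1 (1.06) for overexpression; the cause was not tested. Kif3a for knockdown ran from -0.94 to 0.32 with a library left out. With 1 library of a group left out, the fit assumes that those left vary like the other groups. Replicates that share a number are not described as paired: the deviations of same-numbered libraries correlated at -0.040 to 0.010, and libraries did not all correlate best with their own number. With the replicate block 0 members and 0 pathway genes were called, and over all genes 1 for knockdown, 26 for overexpression, 9 for the difference of effects and 18 for the controls. Depth limits the low members most: Kif17, Bbs10, Bbs12, Ift20 and Ift27.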
